A study of Mus musculus with 25 samples.

Results

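The genes described here make and break down glycogen, the branched glucose polymer in which animal cells store sugar. They were chosen by name, with earlier results of these data known. They are Gys1 and Gys2 (glycogen synthases), Gbe1 (the branching enzyme), Ugp2 (which makes UDP-glucose), Pygl, Pygm and Pygb (glycogen phosphorylases), and Ppp1r3b and Ppp1r3c (subunits that tether protein phosphatase 1 to glycogen). These 9 genes, of 26394 in the authors' table of log2 values, had 14 probes on the array, and 13 of these were in the table of 40561 probes. RNA was from pgWAT (perigonadal white fat, which lies beside the epididymis) of male C57BL6/J mice, with 1 array per sample on single-color Agilent mouse arrays. All mice were fasted for 24 h and then refed for 18 h with food and water holding 20% glucose, a regimen that favors activation of ChREBP.

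ChREBP, the product of Mlxipl, is a transcription factor that responds to glucose and has a long isoform, ChREBPα, and a short one, ChREBPβ, made from a start exon of its own. The groups were ChREBPβ WT (n = 7), ChREBPβ KO (n = 6, the ChREBPβ-specific exon removed by gene editing), ChREBPtotal WT (n = 7) and ChREBPtotal KO (n = 5, Mlxipl-null, without either isoform). Each KO group was set against the WT mice of its own line. Both deletions are in the germ line and so in every tissue, not only in fat cells. The ages of the mice are not given in the sources used here, and the study counts its array samples as animals, so p-values measure the spread between mice of a group. The comparisons asked which glycogen genes need ChREBPβ, which change once both isoforms are lost, and whether the KO effects and the WT groups of the lines differed.

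Glycogen is built from UDP-glucose. Glycogen synthase lengthens the chains and the branching enzyme adds branch points, while phosphorylase removes glucose units from chain ends. Synthase and phosphorylase each exist as tissue-type forms: Gys1 and Pygm are the forms known from muscle, Gys2 and Pygl those known from liver, and Pygb that known from brain. Refed white fat is known to store a small amount of glycogen.

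Median spot intensities ran from 84 to 127 across arrays and median backgrounds from 15 to 22, and between 73.0% and 77.9% of spots on an array cleared background by the scanner software's flag. All 13 member probes in the table were well above background on all 25 arrays. Levels below are the deposited log2 values. They compare samples for 1 probe, and levels of different probes were not set against each other. Mlxipl itself was lower in ChREBPtotal KO than in ChREBPtotal WT (log2 difference -1.77, SE 0.14, adjusted p = 1.11e-08, limma) and did not pass the test between ChREBPβ KO and WT (-0.74, SE 0.13, adjusted p = 0.116). The ChREBPβ groups did not overlap, however (14.02 to 14.64 in KO and 14.72 to 15.46 in WT), and the Mlxipl-null mice still read 14.07 to 14.29, which lies within the ChREBPβ KO range. Whether the probe lies in a deleted exon was not determined here. Adipocyte markers were high in every group (summed log2 level of 8 genes 20.3 to 20.6), with 2 of 8 higher in ChREBPtotal KO than WT. Hepatocyte markers, however, differed between the groups: the summed log2 level of 9 genes was 16.7 to 19.9 in ChREBPβ WT, 15.2 to 19.5 in ChREBPβ KO, 12.1 to 17.3 in ChREBPtotal WT and 11.9 to 12.6 in ChREBPtotal KO. Of these 9 genes, 9 were called lower in ChREBPtotal WT than in ChREBPβ WT, 1 was called lower in ChREBPtotal KO than in its WT and 0 were called between ChREBPβ KO and WT. Their median log2 difference was still -1.96 in the ChREBPtotal comparison and -1.26 in the ChREBPβ comparison, beside a wide spread within groups. The epididymis markers (2 of 6 in the table) stood at 15.7 in ChREBPtotal WT replicate 2 against 5.72 to 8.51 in the ChREBPβ groups and 5.96 to 7.44 in ChREBPtotal KO. Leaving that array out ended no call of the ChREBPtotal comparison below. The other ChREBPtotal WT arrays read 6.82 to 10.2, with replicate 3 the highest of them. Kidney tubule markers were uneven too, at 16.2, 16.1 and 15.0 on ChREBPβ WT replicates 1, 3 and 7 and 8.01 to 12.3 on the rest of that group. They read 8.15 to 13.1 in ChREBPβ KO. No fit left those replicates out together.

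In mice lacking both isoforms, 7 of the 9 glycogen genes changed. Lower levels were found for Gys2, Gbe1, Ugp2, Pygl, Ppp1r3b and Ppp1r3c (6 genes), and a higher level for Pygb (1 gene), while Gys1 and Pygm did not pass the test. The largest difference was that of Pygl, which was 5.18-fold lower. Over all probes, 3.44% were called lower and 5.35% higher in this comparison (adjusted p under 0.05, limma with Benjamini-Hochberg adjustment over all probes). The levels of ChREBPtotal KO and WT did not overlap for 7 of the 9 genes, against 6.79% of all probes. Because the genes were chosen with earlier results of these data known, these shares describe them and are no test of the list. The median log2 difference was -0.82 over the 9 genes and 0.017 over all genes.

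**Figure D1:**
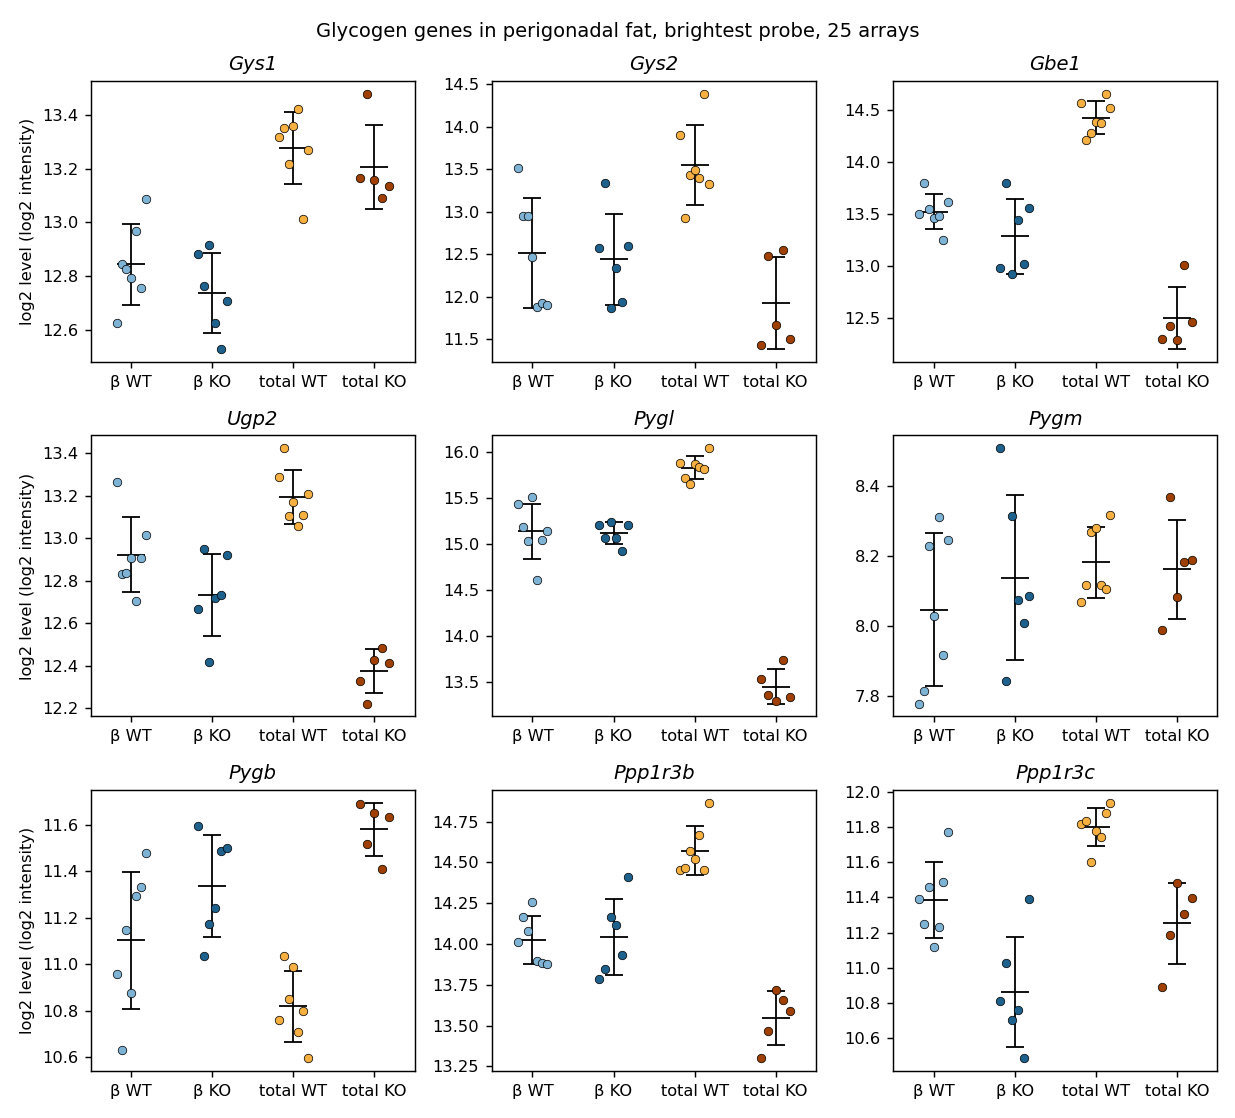
Log2 level (log2 intensity, y axis) of the brightest probe of each of the 9 genes on the 25 arrays, by group (x axis: β WT, β KO, total WT, total KO). Points are arrays, the long tick is the group mean and the bar its SD; each panel has its own scale, and total KO lies below total WT without overlap for Gys2, Gbe1, Ugp2, Pygl, Ppp1r3b and Ppp1r3c and above it for Pygb.

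Among the phosphorylases, which release glucose 1-phosphate from glycogen, Pygl was measured by 1 probe (A_51_P452779, chr12:71291855-71291914, build mm9, minus strand). Its log2 level was 15.65, 15.84 and 16.04 (lowest, median and highest) in ChREBPtotal WT and 13.33, 13.36, 13.30, 13.53 and 13.74 in the 5 ChREBPtotal KO arrays. Every ChREBPtotal KO array lay below every array of the other groups. The log2 difference from ChREBPtotal WT was -2.37 (SE 0.12, adjusted p = 2.75e-11), and it was -2.59 to -2.11 within the 4 wash batches. In ChREBPβ WT the level was 14.61, 15.13 and 15.51, and in ChREBPβ KO 14.92, 15.13 and 15.24. The KO range lay within the WT range, and the log2 difference was -0.02 (95% confidence interval -0.25 to 0.22, adjusted p = 0.987).

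Pygb was the only member higher in ChREBPtotal KO than in its WT. Its brighter probe (A_52_P350664, chr2:150656541-150656600, mm9, plus strand) read 10.60, 10.80 and 11.03 in ChREBPtotal WT and 11.63, 11.52, 11.65, 11.69 and 11.41 in ChREBPtotal KO. All 5 KO arrays lay above all 7 WT arrays. The log2 difference was 0.77 (SE 0.12, adjusted p = 0.000214, 1.71-fold higher), and a second probe gave 0.77 (SE 0.12, adjusted p = 0.000177). That second probe is shown because its 60 bases lie over a stretch of 727 bases of the genome (chr2:150655410-150656136, mm9, plus strand), as a probe across an exon junction does. No base is capitalized, since none is singled out.
Pygb junction probe: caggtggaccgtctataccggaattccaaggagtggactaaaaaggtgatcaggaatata

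The Pygb levels of ChREBPβ WT (10.63, 11.15 and 11.48) and ChREBPβ KO (11.04, 11.36 and 11.59) overlapped, with a log2 difference of 0.23 (95% interval -0.02 to 0.47, adjusted p = 0.592). Pygm, the muscle form, read 8.07, 8.12 and 8.32 in ChREBPtotal WT and 8.19, 8.37, 8.08, 7.99 and 8.18 in ChREBPtotal KO. These ranges overlapped almost fully, and the log2 difference was -0.01 (95% interval -0.24 to 0.21, adjusted p = 0.97). Its second probe in the table gave -0.05 (adjusted p = 0.904). A further Pygm probe was not well above background on any array and was not used.

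Of the synthases, Gys2 fell and Gys1 was not called. Gys2 (A_55_P1992555, chr6:142371157-142371216, mm9, minus strand) read 12.92, 13.43 and 14.39 in ChREBPtotal WT and 11.51, 12.47, 11.66, 11.43 and 12.55 in ChREBPtotal KO. The groups did not overlap. The log2 difference was -1.67 (SE 0.31, adjusted p = 0.000859, 3.19-fold lower). Gys2 was the most variable member within groups by brightest probes, with an SD of 0.47 to 0.65. The highest Gys2 level (14.39) was on ChREBPtotal WT replicate 2, the array with the highest hepatocyte marker level of its group (17.3) and the high epididymis markers. The array of that group with the next highest hepatocyte level (15.6) read 13.40, below the group median. In ChREBPβ WT, Gys2 was 13.51 at the highest marker level (19.9) and 11.88 at the lowest (16.7), but 11.92 on replicate 6 (19.4). In ChREBPβ KO it was 12.59 at the highest marker level (19.5), 13.33 on replicate 4 (19.4) and 11.87 at the lowest (15.2). How far Gys2 followed the marker within groups was not tested. With the hepatocyte marker level as a term, the Gys2 difference between ChREBPtotal KO and WT was -1.13 (adjusted p = 0.00922, limma). Against only the 2 ChREBPtotal WT arrays whose marker level lay within or below the KO range it was -1.22 (adjusted p = 0.211), and that call was lost.

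Gys1, the form found in most tissues outside the liver (A_55_P1982883, chr7:52711790-52711849, mm9, plus strand), read 13.01, 13.32 and 13.42 in ChREBPtotal WT and 13.14, 13.48, 13.16, 13.16 and 13.09 in ChREBPtotal KO. The log2 difference was -0.08 (95% interval -0.27 to 0.10, adjusted p = 0.705). Both synthases showed overlapping ranges in the ChREBPβ groups. Gys1 read 12.62, 12.83 and 13.09 in ChREBPβ WT and 12.53, 12.73 and 12.91 in ChREBPβ KO. Gys2 read 11.88, 12.46 and 13.51 in ChREBPβ WT and 11.87, 12.45 and 13.33 in ChREBPβ KO. The log2 differences were -0.10 (95% interval -0.28 to 0.07) for Gys1 and -0.08 (-0.68 to 0.52) for Gys2.

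Gbe1, which adds the branch points, fell by all of its 3 probes. The brightest (A_51_P273684, chr16:70569840-70569899, mm9, plus strand) read 14.22, 14.39 and 14.66 in ChREBPtotal WT and 12.47, 12.42, 12.29, 12.30 and 13.01 in ChREBPtotal KO. Replicate 7 lay apart from the other 4 KO arrays, and still below all WT arrays. The log2 difference was -1.92 (SE 0.14, adjusted p = 8.87e-09, 3.77-fold lower), and the other probes gave -1.55 and -1.94. In the ChREBPβ line the level was 13.25, 13.50 and 13.80 in WT and 12.93, 13.23 and 13.80 in KO. The ranges overlapped, with 3 of 6 KO arrays below every WT array, and the log2 difference was -0.22 (95% interval -0.51 to 0.06, adjusted p = 0.671).

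Ugp2, which supplies the UDP-glucose used by glycogen synthase (A_55_P2021049, chr11:21221975-21222034, mm9, minus strand), read 13.06, 13.17 and 13.42 in ChREBPtotal WT and 12.41, 12.22, 12.43, 12.33 and 12.48 in ChREBPtotal KO. The groups were apart, and the log2 difference was -0.82 (SE 0.089, adjusted p = 1.29e-06, 1.77-fold lower). In ChREBPβ WT it read 12.71, 12.91 and 13.26, and in ChREBPβ KO 12.42, 12.73 and 12.95. This difference of -0.20 had a p of 0.0298 before adjustment and 0.497 after it (limma).

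Both phosphatase subunits, which bring protein phosphatase 1 to glycogen where it activates synthase, were lower in ChREBPtotal KO. Ppp1r3b, the subunit best known from liver (A_55_P1967133, chr8:36451115-36451174, mm9, plus strand), read 14.46, 14.52 and 14.87 in ChREBPtotal WT and 13.59, 13.47, 13.72, 13.30 and 13.66 in ChREBPtotal KO. All KO arrays were also below all arrays of the ChREBPβ line (13.88, 14.01 and 14.26 in WT, and 13.79, 14.02 and 14.41 in KO). The log2 difference was -1.01 (SE 0.098, adjusted p = 2.56e-07, 2.02-fold lower) for the ChREBPtotal line and 0.03 (95% interval -0.17 to 0.22, adjusted p = 0.971) for the ChREBPβ line.

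Ppp1r3c, also called protein targeting to glycogen, had a log2 difference of about the same size in both lines, called in the ChREBPtotal line alone (A_52_P30451, chr19:36806457-36806516, mm9, minus strand). It read 11.60, 11.81 and 11.94 in ChREBPtotal WT and 11.40, 11.19, 11.48, 10.89 and 11.30 in ChREBPtotal KO. These groups did not overlap, and the log2 difference was -0.53 (SE 0.12, adjusted p = 0.00673, 1.45-fold lower). Against only the 2 ChREBPtotal WT arrays with low hepatocyte marker levels it was -0.58 (adjusted p = 0.189), which ended the call. In ChREBPβ WT it read 11.12, 11.39 and 11.77, and in ChREBPβ KO 10.49, 10.79 and 11.39. Of the 6 ChREBPβ KO arrays, 5 lay below every ChREBPβ WT array. The log2 difference was -0.54 (SE 0.12, 95% interval -0.78 to -0.29), with a p of 0.000158 before and 0.178 after adjustment over all probes (limma). It was between -0.75 and -0.40 within the 4 wash batches, so negative in 4 of 4.

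ChREBP, paired with Mlx, is known to bind carbohydrate response elements, which hold a pair of E-box-like stretches with 5 letters between them. The 250 bases before the gene start were searched for the E-box CACGTG, which reads the same on both strands, in the RefSeq promoter table of build GRCm38.p6. That table held 7 of the 9 members (8 entries), all but Gys2 and Ppp1r3b. The letters were found for 1 of the 7, Ppp1r3c, against 6.02% of 32851 promoters. Among the other pathway genes described further on, 3 of 21 with an entry held them, Gaa, Pgm2l1 and Ppp1r3d, of which Ppp1r3d was higher in ChREBPtotal KO, the opposite direction to Ppp1r3c. Shown are the promoter with the match, with the E-box in capitals (it begins 104 bases before the start), and that of Pygl, the member with the largest fall, in which these letters were not found. A match here is to a single E-box. It is a description of the sequence only, and a missing match says nothing of binding elsewhere. A pair of exact E-boxes with 5 letters between was in 0 of the 32851 promoters, so that search could not tell genes apart.
Ppp1r3c (chr19:36736605-36736854, GRCm38.p6, minus strand): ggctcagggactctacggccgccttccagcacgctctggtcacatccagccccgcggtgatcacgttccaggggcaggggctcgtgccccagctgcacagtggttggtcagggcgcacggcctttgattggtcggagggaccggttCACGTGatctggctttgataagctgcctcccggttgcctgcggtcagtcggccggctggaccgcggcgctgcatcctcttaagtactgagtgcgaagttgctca
Pygl (chr12:70227684-70227933, GRCm38.p6, minus strand): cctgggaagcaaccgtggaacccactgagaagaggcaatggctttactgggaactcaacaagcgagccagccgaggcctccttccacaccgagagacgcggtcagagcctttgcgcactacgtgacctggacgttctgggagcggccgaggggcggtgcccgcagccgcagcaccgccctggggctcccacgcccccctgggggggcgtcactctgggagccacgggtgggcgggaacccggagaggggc

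Lack of ChREBPβ alone changed 0 of the 9 glycogen genes at an adjusted p under 0.05, where 0% of all 40561 probes were called by limma (3659 had an unadjusted p under 0.05). Before adjustment, 2 members had a p under 0.05 (Ugp2 and Ppp1r3c, both lower in KO). None of the 9 had ranges without overlap (0.069% of all probes had). The median log2 difference over the members was -0.08, and it was 0.018 over all genes. The intervals bound what these arrays could have missed. For Pygl, Ppp1r3b, Gys1 and Pygm they reached no farther from 0 than 0.31 log2 units, and for the others as far as -0.37 (Ugp2), 0.47 (Pygb), -0.51 (Gbe1), -0.68 (Gys2) and -0.78 (Ppp1r3c). Those of Ugp2 and Ppp1r3c did not include 0 before adjustment, nor did that of the second Pygb probe (0.004 to 0.48).

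The KO effects of the lines were then tested against each other. Taken against its own WT, the KO effect was lower in the ChREBPtotal line than in the ChREBPβ line for 5 of the 9 members. In this contrast 1.92% of all probes were called lower and 1.29% higher. A gap between the WT groups enters it, so deletion and line cannot be told apart. Mean ChREBPtotal KO levels lay below ChREBPβ KO by 1.66 (Pygl), 0.79 (Gbe1), 0.52 (Gys2) and 0.36 (Ugp2), without overlap for Pygl alone of these. For Ppp1r3b those KO means were 13.55 and 14.04, without overlap. The differences between the effects, on the log2 scale, were -2.36 for Pygl (SE 0.16, adjusted p = 1.44e-08), -1.69 for Gbe1 (SE 0.20, adjusted p = 1.64e-05), -1.04 for Ppp1r3b (SE 0.13, adjusted p = 4.8e-05), -0.63 for Ugp2 (SE 0.12, adjusted p = 0.00368) and -1.59 for Gys2 (SE 0.42, adjusted p = 0.0377). The Gys2 call held in 20 of 38 alternative fits and the Ugp2 call in 36, the exceptions for Ugp2 being the replicate block (adjusted p = 0.0537) and the ChREBPtotal WT arrays of low hepatocyte level (adjusted p = 0.0589). Pygb was not called (0.54, SE 0.17, adjusted p = 0.0985). For Ppp1r3c the effects differed by 0.002 (SE 0.17, 95% interval -0.35 to 0.35, adjusted p = 0.999), so these arrays leave room for a difference of either sign of up to 0.35.

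**Figure D2:**
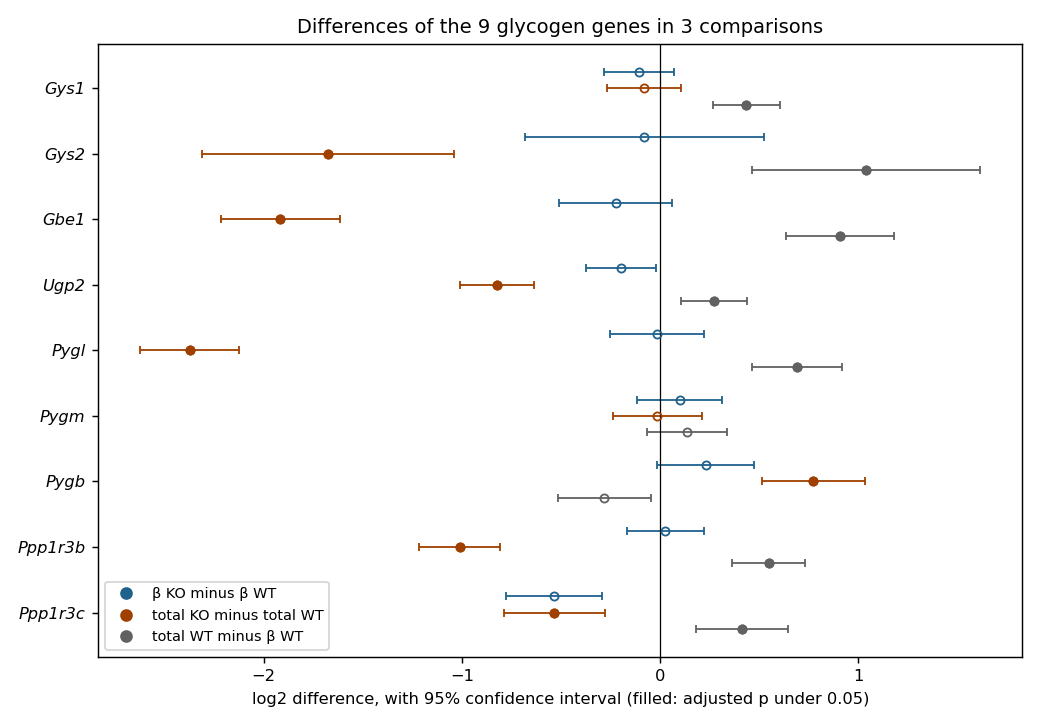
Log2 difference (x axis) with its 95% confidence interval for each of the 9 genes (y axis) in the ChREBPβ comparison, the ChREBPtotal comparison and the comparison of WT groups; filled points had an adjusted p under 0.05. The ChREBPtotal differences of Pygl (-2.37) and Gbe1 (-1.92) lie farthest from 0, the ChREBPβ differences are unfilled for all 9 genes, and the Ppp1r3c points of both KO comparisons lie together.

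The WT mice of the lines were not alike in these genes. ChREBPtotal WT was higher than ChREBPβ WT for 7 of 9 members, where 14.7% of all probes were called higher and 7.26% lower. The log2 differences were 1.04 for Gys2 (SE 0.28, adjusted p = 0.00993), 0.91 for Gbe1 (SE 0.13, adjusted p = 8.07e-05), 0.69 for Pygl (SE 0.11, adjusted p = 0.000166), 0.55 for Ppp1r3b (SE 0.089, adjusted p = 0.000213), 0.44 for Gys1 (SE 0.081, adjusted p = 0.000676), 0.41 for Ppp1r3c (SE 0.11, adjusted p = 0.0109) and 0.27 for Ugp2 (SE 0.081, adjusted p = 0.0195). Ranges of the WT groups did not overlap for 3 members, Gbe1, Pygl and Ppp1r3b, against 5.06% of all probes. Pygb (-0.28, adjusted p = 0.0781) and Pygm (0.14, adjusted p = 0.347) were not called. This comparison uses the same ChREBPtotal WT arrays as the ChREBPtotal comparison, so the values of both are given side by side and not as separate evidence.

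Hepatocyte markers moved the opposite way between these WT groups, with 9 of 9 lower in ChREBPtotal WT and a median log2 difference of -4.72. With the marker level as a term in limma, Gys2 (2.21), Gbe1 (1.23), Pygl (0.79) and Ppp1r3b (0.60) remained called. Gys1 (0.21, adjusted p = 0.331), Ugp2 (0.36, adjusted p = 0.113) and Ppp1r3c (0.50, adjusted p = 0.117) did not. The marker level was 16.7 to 19.9 in ChREBPβ WT and 12.1 to 17.3 in ChREBPtotal WT. This fit can therefore hardly separate the marker from the line between the WT groups. In the ChREBPtotal comparison all 7 calls were kept with that term, with Pygl at -2.33 and Gbe1 at -1.77. Against the 2 ChREBPtotal WT arrays of low marker level, Pygl was -2.42, Gbe1 -1.87, Ppp1r3b -1.16, Ugp2 -0.89 and Pygb 0.82, and 5 members were called. In bulk tissue, fewer cells of a type and less RNA per cell cannot be told apart. Of the skeletal muscle markers, 8 of 9 were in the table, and 4 were called higher in ChREBPtotal WT than in ChREBPβ WT while 0 were called in either KO comparison. Kidney tubule markers (2 of 4 in the table) and lymphocyte markers (1 of 6) were lower in ChREBPtotal WT, and 1 of the 2 epididymis markers in the table was higher. The part of these markers in the WT differences was not tested beyond these fits.

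**Figure D3:**
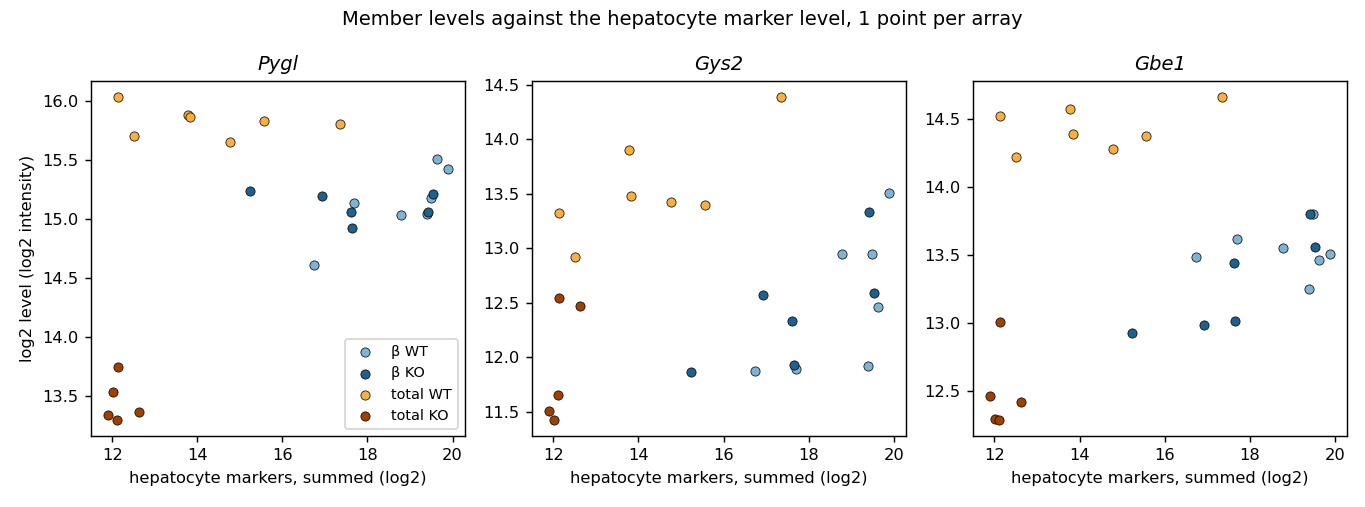
Log2 level (y axis, log2 intensity) of Pygl, Gys2 and Gbe1 on each array against the summed log2 level of 9 hepatocyte markers on that array (x axis), colored by group. The total KO arrays (marker level 11.9 to 12.6) lie below the 2 total WT arrays in or under that marker range for all 3 genes. The β line arrays have higher marker levels than these (15.2 to 19.9). Their gene levels lie between the total groups for Pygl and mostly so for Gbe1, and for Gys2 they overlap both total groups.

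Taking the group means in order, ChREBPtotal WT was highest for 8 of the 9 genes, all but Pygb, for which ChREBPtotal KO was highest. For Gys2, Gbe1, Ugp2 and Pygl the order was ChREBPtotal WT, ChREBPβ WT, ChREBPβ KO and ChREBPtotal KO. Neighbors in that order overlapped throughout for Gys2 and Ugp2. For Gbe1, ChREBPtotal WT stood clear of ChREBPβ WT and the rest overlapped. For Pygl only the ChREBPβ groups overlapped. Ppp1r3c was lowest in ChREBPβ KO, although that group overlapped ChREBPtotal KO. For Gys1 the order followed the lines: the means of both ChREBPtotal groups, which overlapped each other, lay above those of both ChREBPβ groups. The range of ChREBPtotal WT overlapped that of ChREBPβ WT (13.01 to 13.42 and 12.62 to 13.09), and the lowest ChREBPtotal KO array was at the level of the highest ChREBPβ WT array (both 13.09).

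Other genes of glycogen metabolism were drawn from a list, of which 23 are reported here and 21 were in the table (not Ppp1r3a or Ppp1r3g). Of these 21, 4 were higher and 0 were lower in ChREBPtotal KO (limma), beside 5.35% and 3.44% of all probes. An unadjusted p under 0.05 was found for 11 of the 21 and for 8253 of the 40561 probes. With the hepatocyte term, or against the ChREBPtotal WT arrays of low hepatocyte level, 2 were called. More were called with array weights and with the mean over a gene's probes. The higher genes were Ppp1r3d, another glycogen-targeting subunit of the phosphatase (0.90, SE 0.10, adjusted p = 3.45e-06), Phka2 and Phkb, subunits of phosphorylase kinase, which switches phosphorylase on (0.65, adjusted p = 0.000489, and 0.29, adjusted p = 0.00718), and Pgm1, the phosphoglucomutase that links glycogen to glucose 6-phosphate (0.29, adjusted p = 0.014). The array names this Pgm1 probe Pgm2, an older mouse symbol, and the current name came from its RefSeq accession. The other 17 were not called by limma on their brightest probes. Among them were the glycogenin gene Gyg (-0.28, adjusted p = 0.198) and the synthase kinases Gsk3a (0.02) and Gsk3b (0.28, adjusted p = 0.123). The median log2 difference of the 21 genes was 0.04.

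**Figure D4:**
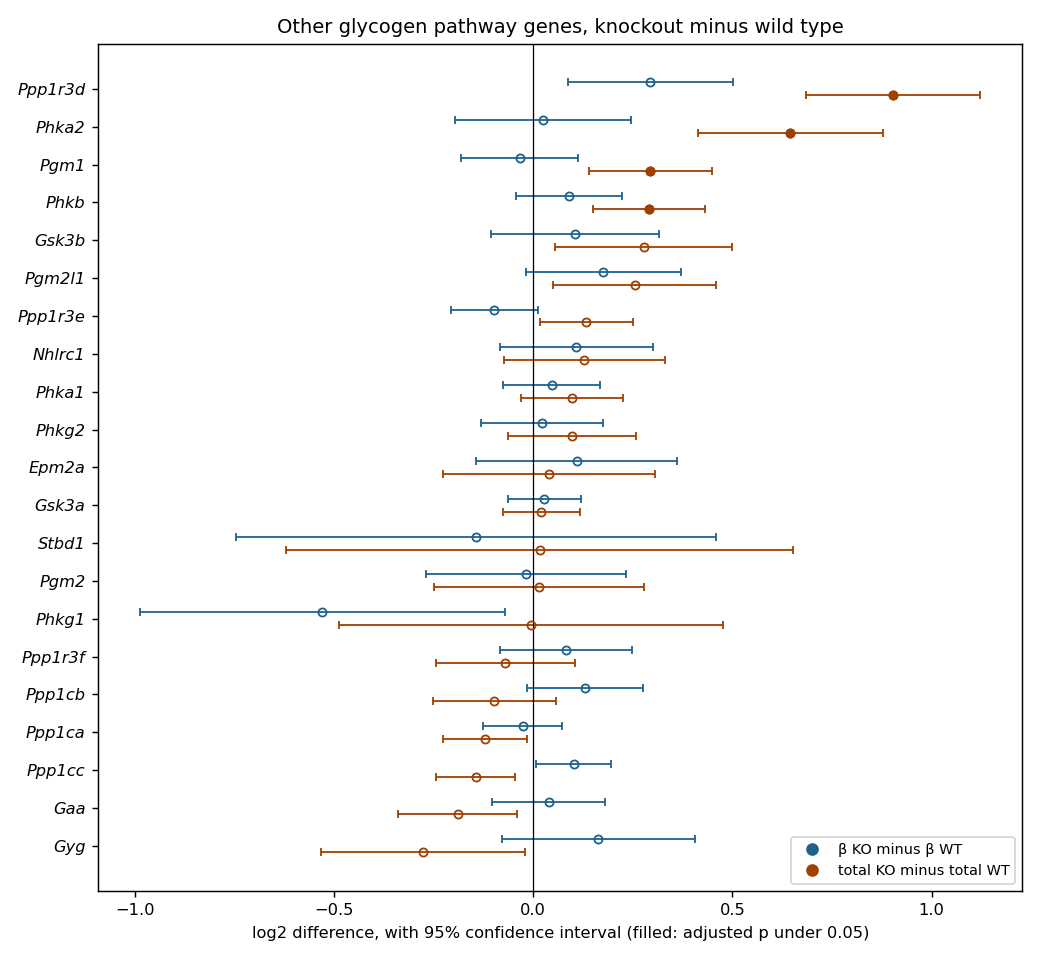
Log2 difference, KO minus WT (x axis), with 95% confidence intervals for 21 other glycogen pathway genes (y axis, in order of the ChREBPtotal difference) in the ChREBPβ and ChREBPtotal comparisons; filled points had an adjusted p under 0.05. In the ChREBPtotal comparison Ppp1r3d (0.90), Phka2, Pgm1 and Phkb are filled on the high side, and no ChREBPβ point is filled.

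Lack of ChREBPβ changed 0 of these 21 genes (limma). Before adjustment 3 had a p under 0.05, as had 3659 of the 40561 probes, so 3 of 21 is close to the share over all probes. They were Phkg1 (-0.53, adjusted p = 0.484), Ppp1r3d (0.29, adjusted p = 0.402) and Ppp1cc (0.10, adjusted p = 0.517). The KO effects differed between the lines for 3 of the 21, beside 1.92% of all probes called lower and 1.29% higher, and for 0 with the low-hepatocyte arrays and 1 without ChREBPtotal KO replicate 4. By limma, the effect in the ChREBPtotal line was lower for Ppp1cc, a phosphatase catalytic subunit (-0.25, adjusted p = 0.041). It was higher for Phka2 (0.62, adjusted p = 0.0246) and Ppp1r3d (0.61, adjusted p = 0.0182). Between the WT groups, 3 were higher in the ChREBPtotal line, namely Ppp1ca (0.30), Pgm1 (0.23) and Phka1 (0.16), and 3 were lower, namely Stbd1 (-0.98), Phkg1 (-0.67) and Phkg2 (-0.24). The share called higher was near the 14.7% of all probes, with 7.26% called lower, and is no result about these genes. Stbd1 encodes a protein that binds glycogen, and Phkg1 and Phkg2 the catalytic subunits of phosphorylase kinase.

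The genes whose levels followed those of the 3 most changed members most closely over the 25 arrays were found by Pearson correlation of brightest probes, as a description. For Pygl these were Adap1 (r = 0.983), Sbk1 (r = 0.975) and Kcnk3 (r = 0.969), which were lower in ChREBPtotal KO by -2.60, -2.64 and -3.31 on the log2 scale. For Gbe1 the closest was Pdk1, a kinase that inhibits pyruvate dehydrogenase (r = 0.967, log2 difference -2.29), followed by probes that carry only an identifier. For Gys2 the 3 closest were also known only by identifiers, at a lower r of 0.865 to 0.869. These arrays share the 4 groups and the wash batches, so a gene that differs between groups like a member correlates with it.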

How the data were processed

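Single-color Agilent SurePrint G3 mouse arrays of pgWAT RNA were scanned, and spots were read with Agilent Feature Extraction 10.10.1.1, per the file headers and the submitters' processing notes. The deposited log2 values are the authors' quantile-normalized log2 median intensities of 40561 probes, with no background subtraction. Their columns matched the log2 median intensity of the scanner files at r of at least 0.9998, so scale and direction were settled, and each column had a median of 7.96. The deposited scanner intensity values (median and mean signal, local background, processed signal) served the alternatives. The number of arrays limits the precision.

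A gene stood by its probe with the highest mean. All arrays entered 1 limma 3.58.1 model (R 4.3.3) of the 4 groups plus a fixed effect of wash batch, with 18 residual degrees of freedom. The log2 differences were moderated by eBayes and p-values adjusted by Benjamini-Hochberg over all probes, with calls at 0.05. Each of the 4 wash batches held all groups. The arrays lay on 15 slides and were scanned on 2 days. The model was run on simulated data with independent noise and no batch or tissue effects, so that run says nothing of such effects in these arrays. All members are named, as are pathway genes that were called (up to 6 per comparison), beside genes named to show which were not called, which were chosen after their values were seen. The 3 genes most correlated with the 3 most changed members complete the rule. The members and the lists were chosen with earlier results of these data known. From the pathway list, 1 gene is not reported here and is left out of its counts. Markers of skeletal and smooth muscle, macrophages, lymphocytes, endothelium, mesothelium and kidney tubule were also measured, and 0 were called in either KO comparison. For kidney tubule this came with the uneven levels within ChREBPβ WT given above.

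Alternatives were no batch term, the replicate number as a block, slide as a random block, the compared groups only, array weights, a variance trend with robust priors, the scanner median signal with and without the study's filter, probes well above background on every array, the processed signal scaled to its 75th percentile, normexp with an offset of 50, the mean over a gene's probes, and leaving out each array. The hepatocyte term and the fit on ChREBPtotal WT arrays of low hepatocyte level (2 kept, 5 left out) were chosen after seeing the data. No annotation of mm9 was used, so exons are not given. No member probe shared a run of 20 bases with a probe of another gene. Promoter sequences are RefSeq's.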

Additional observations from a re-analysis of the deposited data

Results flagged for a closer look

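Among 52 groups of values (13 member probes in 4 groups), 2 held an array far from the others, and chance flags about 1 group in 20. Gys1 in ChREBPtotal KO replicate 2 read 13.48 where the nearest array read 13.16 (gap over range 0.809, n = 5), and Gbe1 in ChREBPtotal KO replicate 7 read 13.01 against 12.47 (0.757, n = 5). The effects of the KO lines differed, by the test of the difference itself, for Pygl (-2.36), Gbe1 (-1.69), Gys2 (-1.59), Ppp1r3b (-1.04) and Ugp2 (-0.63), on the log2 scale and over 25 arrays. Deletion and line cannot be told apart in this test.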

How the results depend on the processing

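The member counts were 7 of 9 in the ChREBPtotal comparison in each of 13 alternatives and in each fit that left out 1 array, and 5 against ChREBPtotal WT arrays of low hepatocyte level. They were 0 in the ChREBPβ comparison throughout, the lowest adjusted p of Ppp1r3c being 0.0506. For the difference of effects the count fell from 5 to 3 under the replicate block (Gys2 adjusted p 0.0768, Ugp2 0.0537) and to 3 with the low-hepatocyte arrays (Gys2 -1.15, Ugp2 -0.70), and was 4 to 5 without 1 array. For the WT groups it fell from 7 to 4 with the hepatocyte term, was 6 under the block (Ugp2 adjusted p 0.0575) and 7 to 8 without 1 array, Pygb passing without ChREBPβ WT replicate 4 (-0.36) or ChREBPtotal WT replicate 5 (-0.33). The labels do not say whether replicate numbers pair the arrays. Deviations of same-numbered arrays correlated at -0.432 to 0.386, with 5 of 15 pairs over 0.1. Some of these pairs were WT arrays of different lines or crossed wash batches, so the correlations do not settle it. The Gys2 difference of effects lost its call without any 1 of ChREBPβ WT replicates 1, 4, 6 and 8, ChREBPβ KO replicates 2, 4, 5 and 8, ChREBPtotal WT replicates 3, 4, 6, 7 and 8, or ChREBPtotal KO replicates 1, 3 and 4 (-1.81 to -1.40 over all 25 such fits), while Pygb (0.49 to 0.62) passed without ChREBPβ KO replicate 2 or ChREBPβ WT replicate 4. The pathway count of 4 in the ChREBPtotal comparison was 7 with array weights, 7 with gene means, 2 with the hepatocyte term and 2 with the low-hepatocyte arrays. That of 3 for the difference of effects was 0 with those arrays and 1 to 3 without 1 array, 1 without ChREBPtotal KO replicate 4.

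Only values that were not called turned their sign. The Ppp1r3c difference of effects was -0.024 without the batch term, -0.029 by processed signal, -0.010 by normexp and -0.039 with the low-hepatocyte arrays (-0.099 to 0.087 without 1 array). That of Gys1 was -0.020 under the block and -0.028 with the hepatocyte term (-0.044 to 0.067). In the ChREBPβ comparison Pygl was 0.015 by scanner signal with and without the filter, 0.00066 by normexp and 0.0071 with the hepatocyte term (-0.11 to 0.043), Gys2 0.20 with that term (-0.21 to 0.059), and Ppp1r3b -0.027 with array weights (-0.047 to 0.076). Pygm was -0.17 between WT groups with the hepatocyte term, and -0.085 to 0.040 in the ChREBPtotal comparison without 1 array. Over all probes, 48 were called in the ChREBPβ comparison with array weights and 80 without ChREBPβ KO replicate 4, against 0. The cause was not tested.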
